A study of Mus musculus with 6 samples.

Results

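The common gamma chain cytokine receptors were followed as RNA of 8 genes in single immune cells of mouse livers, 8 of the 32286 genes counted. The genes were taken by name: Il2rg, the common chain itself; Il2rb, the signalling chain of the interleukin-2 and interleukin-15 receptors; the private chains Il2ra, Il7r, Il15ra, Il21r and Il4ra; and Il18r1. All 8 were found in the 3 mRNA libraries. Each library is 1 pool of 3 tumor samples collected at day 30 after infection, from mock mice, mice given an adeno-associated virus (AAV) with a control guide RNA (AAV-sgSCR) and mice given AAV-sgBaat. The gene Baat codes for the liver enzyme that conjugates bile acids with taurine or glycine. The labels call the mock liver native in one field and tumor bearing in another, and strain, age and tumor model are not given in the sources used here. CD3-positive T cells were sorted apart from the remaining CD45hi cells before both went into 1 run, so the sort fixed how many T cells stand beside B, NK and myeloid cells. With 1 library per group there is no replicate error, no test and no p-value, and every interval below covers counting error only.

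Receptors of this family work as pairs or triplets of chains. The common chain binds JAK3 and the partner chain binds JAK1, and the pair switches on STAT5 for interleukins 2, 7 and 15, STAT3 for interleukin-21 and STAT6 for interleukin-4. Naive and memory T cells live on interleukin-7, NK cells and memory CD8 T cells on interleukin-15, and early B cells of the mouse need the interleukin-7 receptor to grow. Il18r1 belongs to another family, the interleukin-1 receptors, and signals without the common chain. It is often read beside Il2rb because NK cells and effector T cells carry both.

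The libraries held 6431 (mock), 8073 (AAV-sgSCR) and 9386 (AAV-sgBaat) barcodes, of which 6068, 7332 and 7094 had at least 500 genes and 1000 gene UMIs (unique molecular identifiers, counted RNA molecules) and at most 10% mitochondrial UMIs. Barcodes carrying markers of more than 1 lineage made up 6.23%, 21.0% and 33.3% of these and were removed, which left 5642, 5626 and 4432 cells in a class. Pairs of libraries shared 10 to 16 barcode sequences. Neutrophil markers (S100a8, S100a9, Retnlg, Camp and Ltf) summed to 2.02 to 9.45 CPM (UMIs per 1e6 gene UMIs of the class) in mock T, NK and ILC1 classes, between 277 and 515 CPM in the same classes of the AAV-sgSCR library and between 152 and 363 CPM in that of AAV-sgBaat. Their part in the results was not tested. Baat was counted 7, 16 and 1 times, and a hepatocyte gene counted in sorted immune cells says nothing about editing.

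Cells were placed in classes by marker UMIs, none of them a receptor gene of this set. The gates were set beside wider marker lists that include the gates' own genes, so this check is only partly independent. All 6 T cell markers were detected in at least 10% of cells in every CD8, CD4, gamma-delta and immature T class that is described, all 7 NK markers in NK and ILC1 cells, and all 7 markers of conventional NK cells (Eomes, S1pr5, Klra4, Klra8, Klra9, Itga2 and Itgam) in NK cells but at most 1 in ILC1 cells. Of these conventional NK markers, all but Itgam also set the split of NK from ILC1 cells. The CD8 T cells were divided by their antibody tags into cells with more CD90.1 than CD90.2 and the reverse. The CD90.1-dominant cells numbered 12 in mock, 1081 in AAV-sgSCR and 321 in AAV-sgBaat, so no mock level is given for them. Where CD90.1 came from is not stated in the labels.

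Il2rg was the most evenly carried of the 8 genes across ILC1, NK, gamma-delta T, CD4 T, Ccl5-positive CD8 T and mature B cells. Immature T cells and precursor B cells had less of it, as given below. Its level, the CPM of a class's summed gene UMIs, had a median over the 3 libraries of 253 in ILC1 cells, 244 in NK cells, 241 in gamma-delta T cells, 231 in CD4 T cells, 209 in Ccl5-positive CD8 T cells and 199.999 in mature B cells. From ILC1 cells down to mature B cells the ranges of neighbours in this order overlapped. Below them lay other B cells (109), plasmacytoid dendritic cells (45.5), monocytes and macrophages (42.1) and dendritic cells (35.9), and the range of mature B cells (189.96 to 219) did not reach that of the other B cells (74.7 to 135). Neutrophils were at 12.2 CPM in AAV-sgSCR and 17.6 in AAV-sgBaat.

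Il2rb was highest in NK and ILC1 cells, with lower levels in T cells. In ILC1 cells it stood at 1309 CPM (95% Poisson interval 1210 to 1414) in mock, 842 (764 to 926) in AAV-sgSCR and 829 (727 to 941) in AAV-sgBaat. In NK cells the values were 994, 715 and 771 CPM. Mock was the high library in both classes and its interval overlapped neither virus library's. Gamma-delta T cells (347 to 632 CPM), Ccl5-positive CD8 T cells (295 to 389) and CD4 T cells (257 to 270) followed. B cells and the myeloid and dendritic classes in this order were all under 10 CPM.

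Among the classes with a level in all libraries, Il7r was highest in T cells, ILC1 cells and plasmacytoid dendritic cells. Outside these classes, precursor B cells also carried it, and CD90.1-dominant CD8 and immature T cells had less, as given below. T cells in none of the named subsets came first by median (397 CPM). CD4 T cells had 471 CPM in mock, 385 in AAV-sgSCR and 374 in AAV-sgBaat, ahead of gamma-delta T cells with 253, 462 and 299.997. These ranges overlapped, as did those of every neighbour down to ILC1 cells (228, 230 and 205 CPM). Plasmacytoid dendritic cells lay just below at 196, 198 and 178, outside the ILC1 range. NK cells had 21.2 to 53.9 CPM, so the gate on conventional NK markers separated 2 classes of similar Il2rb but unlike Il7r.

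The remaining private chains were sparser. Il2ra, the chain that raises affinity for interleukin-2, was at 75.6 CPM (43.2 to 123) in the 29 Foxp3-positive T cells of mock, the highest mock level among the classes with one; fewer than 20 such cells were found in each virus library, so no level is given there. Il18r1 was highest in NK cells (208 CPM, range 202 to 250.5) and gamma-delta T cells (176, range 104 to 228), which overlapped, then ILC1 cells (113, range 111 to 170). Il21r was spread over ILC1 cells, mature B cells, plasmacytoid dendritic cells and CD8 T cells at medians of 86.7 to 63.0 CPM with overlapping ranges, and was low in NK cells (23.4). Il4ra, which pairs with the common chain for interleukin-4 and with Il13ra1 for interleukin-13, was highest in mature B cells (59.0, range 35.6 to 102) among the classes with a level in all libraries but overlapped its neighbours in every lymphoid class. Il15ra never passed 15.4 CPM in the 11 classes with a level in all libraries. The 100 migratory dendritic cells of AAV-sgSCR carried 98.6 CPM of Il15ra (81.7 to 118), which presents interleukin-15 to neighbouring cells, together with 112 CPM of Il4ra and 110 CPM of Il21r.

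**Figure D1:**
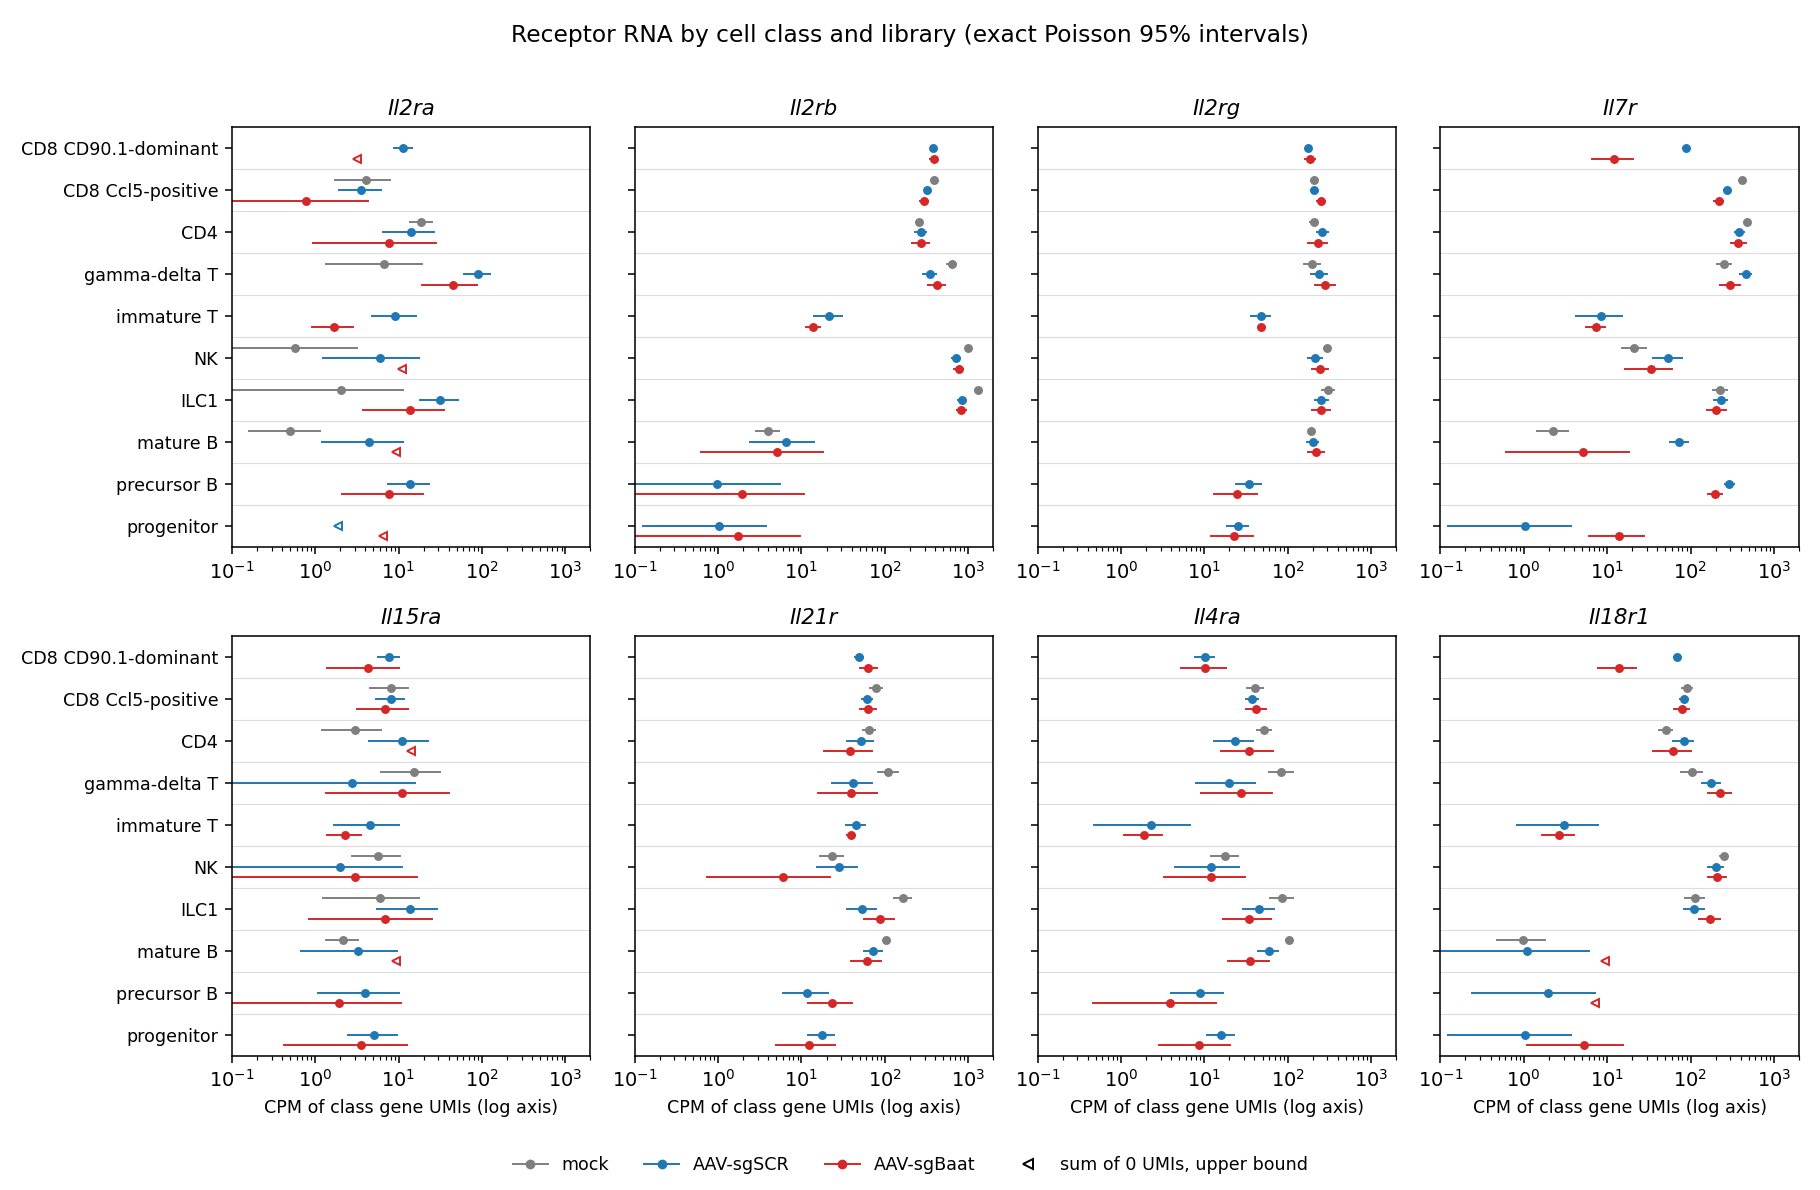
Level of each receptor gene by cell class (rows) and library (colour) as CPM of the class's gene UMIs on a log axis, with exact Poisson 95% intervals; an open triangle marks a sum of 0 UMIs at its upper bound, and classes under 20 cells in a library have no point. Il2rb stands highest in NK and ILC1 cells (715 to 1309 CPM), and Il7r and Il18r1 of the CD90.1-dominant CD8 T cells lie apart between AAV-sgSCR and AAV-sgBaat.

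Both virus libraries carry a guide, so AAV-sgSCR is the control for AAV-sgBaat. The clearest difference of this comparison among the receptors was in CD90.1-dominant CD8 T cells, where Il7r, Il18r1 and Il2ra were low in AAV-sgBaat while Il2rb and Il2rg were level. Il7r was at 89.2 CPM (81.8 to 97.1; 538 UMIs) in AAV-sgSCR and 12.01 CPM (6.57 to 20.2; 14 UMIs) in AAV-sgBaat, a log2 ratio of -2.89 (-3.77 to -2.13). Il18r1 was at 69.7 CPM (420 UMIs) and 13.7 CPM (16 UMIs), a log2 ratio of -2.34 (-3.16 to -1.63), or -4.10 after thinning. The library with the control guide was the high one for both genes and the intervals did not overlap. Il2ra was counted 68 times in AAV-sgSCR, in 39 of 1081 cells, and 0 times in the 321 cells of AAV-sgBaat. With 3 counts in place of 0 this is at least 4.38-fold lower; after thinning to 2000 UMIs the sums are too small for such a bound and the call ended. The 0 of 321 cells allow a share with a UMI of up to 0.935% at this depth, which does not limit the share of cells that express the gene.

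Il2rb, by contrast, was at 377 CPM (362 to 393) and 384 CPM (349.6 to 422), a log2 ratio of 0.03 (-0.12 to 0.18). Il2rg was at 176 and 184 CPM, with a log2 ratio of 0.07 (-0.15 to 0.28). Summed over the whole gate, RNA of the signalling chains for interleukin-2 and interleukin-15 was thus at like levels in both libraries. The few cells of the gate without a Ccl5 UMI had less Il2rb in AAV-sgBaat, as given below. Il21r (49.1 and 63.5 CPM; 0.37, -0.02 to 0.74), Il4ra (10.1 and 10.3 CPM; 0.03, -1.003 to 0.93) and Il15ra (7.63 and 4.29 CPM; -0.83, -2.52 to 0.50) had ratios whose intervals included 0. Of the 8 members, all with at least 20 UMIs over both libraries, 3 were lower by 2-fold or more and 0 higher. Of all 10042 genes that met this minimum, 5.94% were lower and 4.74% higher by as much. The median log2 ratio was -0.40 over the members and -0.01 over all genes.

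The share of cells told the same of Il7r at matched depth. The CD90.1-dominant cells had a median of 4892 UMIs in AAV-sgSCR and 3110 in AAV-sgBaat, so each cell was thinned to 2000 UMIs, which left out 27 and 94 shallower cells. Il7r was then found in 12.7% of AAV-sgSCR cells (exact Clopper-Pearson interval 10.8% to 14.9%; 19.9% unthinned) and 2.64% of AAV-sgBaat cells (0.976% to 5.66%; 2.80% unthinned). Neutrophils, which should lack Il7r, had it in 0.753% and 0.698% at the same thinned depth, with unthinned medians of 5033 and 3484 UMIs. The AAV-sgBaat share therefore overlapped the neutrophil share (0.144% to 2.03%) within counting error. Il18r1 was in 10.4% (8.66% to 12.4%) and 0.881% (0.107% to 3.15%) of the thinned cells. The last value lies below the 4.42% of AAV-sgBaat neutrophils, a cell type that carried Il18r1 in 3.87% of its thinned AAV-sgSCR cells, and is not read as expression. Il2rb was in 48.3% and 52.0%.

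The genes that lay lower, Il7r, Il18r1 and Il2ra, sit on 3 chromosomes: Il7r on chromosome 15 (9506159 to 9529941, GRCm38.p6, the patch level of mm10), Il18r1 on chromosome 1 (40465552 to 40500854) and Il2ra on chromosome 2 (11642792 to 11693194), close to Il15ra (11705172 to 11733985). The promoter sequence upstream of each gene is shown because these 3 were low together. RefSeq windows of 300 bases, 250 before and 50 after a transcript start, were found for 7 of the 8 members, and the stretch outside the gene's own span is printed 5′ to 3′ on the gene's strand, with capitals for a match to the STAT5 motif TTCNNNGAA. The Il7r stretch is chr15:9529942-9530126 on the minus strand, that of Il18r1 chr1:40465302-40465551 and that of Il2ra chr2:11642542-11642791, both on the plus strand.
Il7r: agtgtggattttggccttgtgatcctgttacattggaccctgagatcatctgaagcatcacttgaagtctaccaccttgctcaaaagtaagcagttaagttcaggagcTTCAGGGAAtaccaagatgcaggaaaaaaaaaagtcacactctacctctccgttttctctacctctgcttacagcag
Il18r1: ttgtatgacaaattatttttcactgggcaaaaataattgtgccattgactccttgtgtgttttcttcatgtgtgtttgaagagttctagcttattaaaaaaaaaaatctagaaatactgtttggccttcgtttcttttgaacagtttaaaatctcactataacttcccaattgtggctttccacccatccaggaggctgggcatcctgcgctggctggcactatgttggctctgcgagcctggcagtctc
Il2ra: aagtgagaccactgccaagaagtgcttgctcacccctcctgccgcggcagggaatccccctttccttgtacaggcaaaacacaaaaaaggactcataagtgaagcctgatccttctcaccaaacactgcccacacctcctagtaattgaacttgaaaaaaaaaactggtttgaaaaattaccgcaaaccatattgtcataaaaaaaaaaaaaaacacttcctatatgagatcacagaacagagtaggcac
In these windows 3 motifs were searched on both strands: TTCNNNGAA, GTAAACA for FOXO factors and TGTGGT for RUNX factors. TTCNNNGAA occurred once in the Il7r window, 142 bases before the start, and 2 times in the third of 3 windows of Il18r1, which lies inside the gene. It is present in 8.30% of all 32851 mouse windows. GTAAACA (3.65% of windows) was found, among the 7 members, in the Il21r window, where it overlaps the TGTGGT match, and TGTGGT (16.8%) in the windows of Il2rg, Il7r, Il21r and the second window of Il18r1. No motif was found in the Il2ra, Il15ra and Il4ra windows, which says only that these letters are not there.

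**Figure D2:**
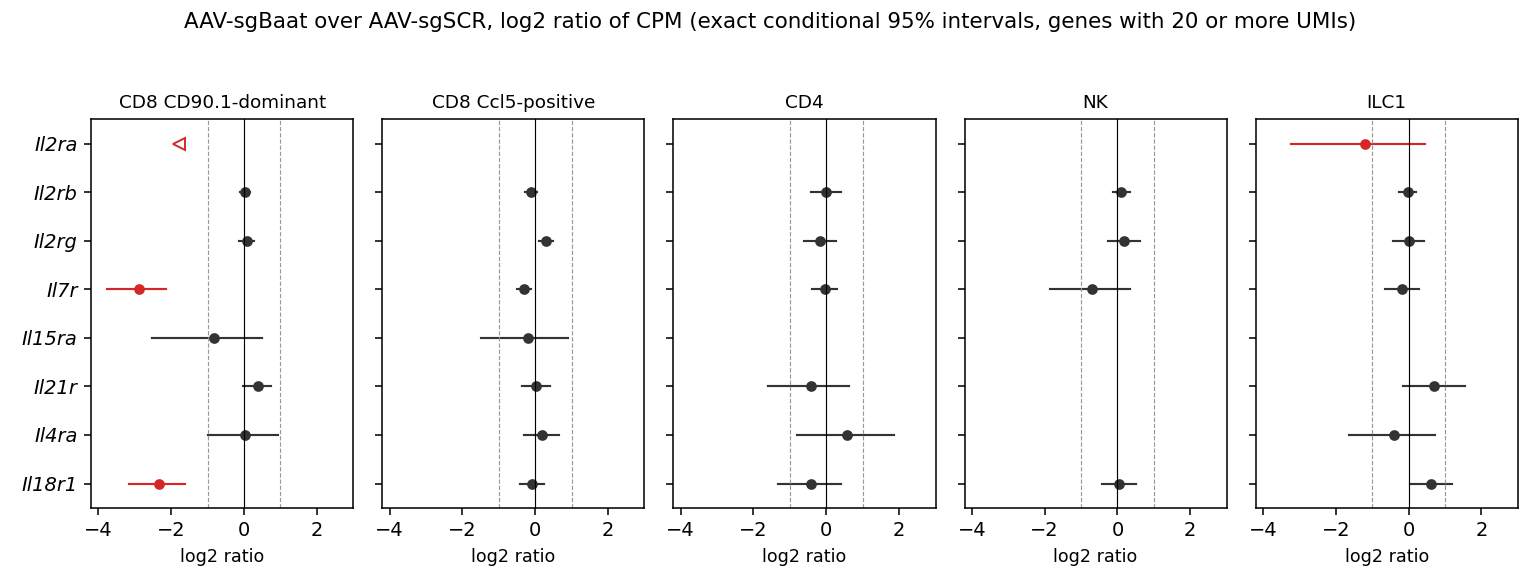
Log2 ratio of AAV-sgBaat over AAV-sgSCR CPM for the receptor genes in 5 classes, with exact conditional 95% intervals; dashed lines mark 2-fold, red marks ratios past it, the triangle marks the upper bound for a sum of 0, and genes under 20 UMIs over both libraries have no point. Il7r (-2.89) and Il18r1 (-2.34) of the CD90.1-dominant CD8 T cells lie far past the line, while Il2rb of the same cells is at 0.03.

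The CD90.1-dominant cells were not uniform. Ccl5, a chemokine of effector and memory CD8 T cells, was detected in 943 of the 1081 AAV-sgSCR cells (87.2%) and in 267 of the 321 AAV-sgBaat cells (83.2%); this split was made after the values were seen. In AAV-sgSCR the 138 cells without Ccl5 had the higher Il7r level, at 318 CPM (278 to 363) against 59.4 (53.1 to 66.3) in the cells with it. Il18r1 was at 279 against 42.4 CPM and Il2ra at 50.4 against 6.18 CPM in the same cells, while Il2rb went the other way at 203 against 400 CPM (399.6). In AAV-sgBaat the 54 cells without Ccl5 had 35.3 CPM of Il7r (11.5 to 82.3; 5 UMIs), 7.06 of Il18r1 (1 UMI) and 28.2 of Il2rb (4 UMIs). Among Ccl5-positive cells alone, Il7r was at 8.79 CPM in AAV-sgBaat (4.02 to 16.7) and the log2 ratio was -2.76, and Il18r1 was at 14.7 CPM with a ratio of -1.53. Both differences were thus present within the Ccl5-positive majority as well.

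**Figure D3:**
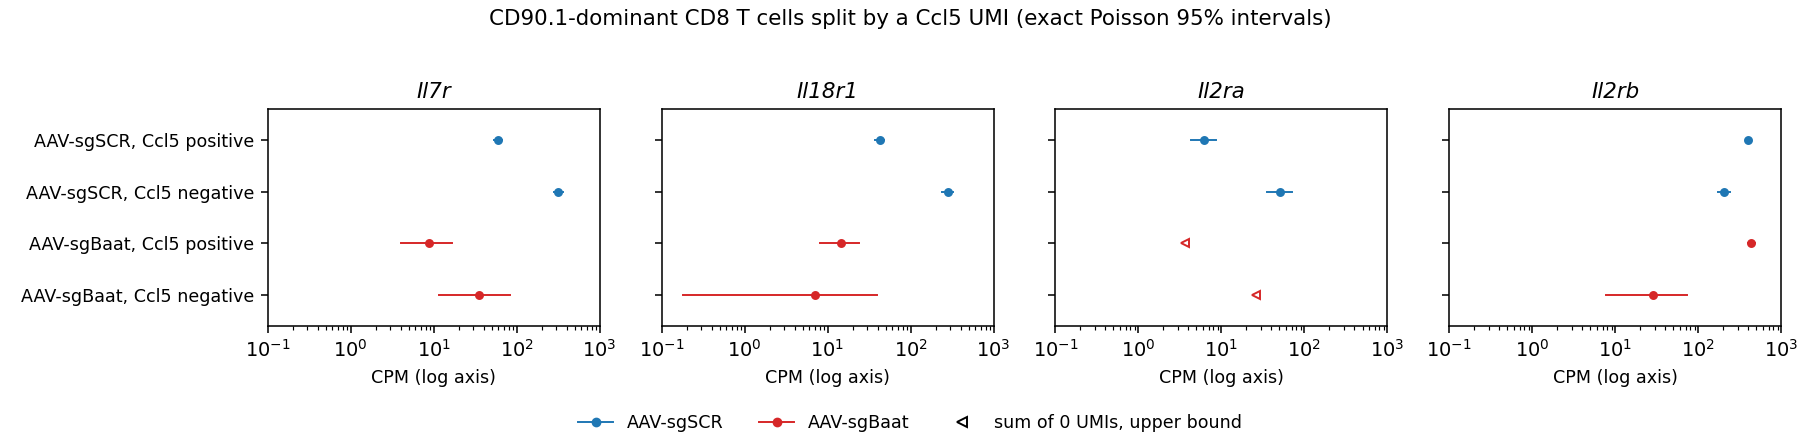
Il7r, Il18r1, Il2ra and Il2rb in CD90.1-dominant CD8 T cells with and without a Ccl5 UMI, as CPM on a log axis with exact Poisson 95% intervals; open triangles mark sums of 0. The Ccl5-negative AAV-sgSCR cells are the highest point for Il7r (318 CPM), Il18r1 (279) and Il2ra (50.4) and not for Il2rb (203).

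Other splits of the same cells, also made after the values were seen, gave the same direction. In cells with a UMI of Pdcd1, the inhibitory receptor PD-1, Il7r was at 96.4 CPM in AAV-sgSCR and 3.54 (2 UMIs) in AAV-sgBaat. In cells with a UMI of Tcf7, a factor of naive and stem-like T cells, it was at 239.9 and 16.8 CPM. The AAV-sgBaat gate held more RNA of immature lymphocytes, with 32.6 CPM of Dntt against 1.49 in AAV-sgSCR. Without the 63 AAV-sgBaat and 13 AAV-sgSCR cells holding any UMI of Dntt, Arpp21 or Rag1, Il7r was at 9.01 CPM and 90.102 CPM, so the difference was as large without them.

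The difference was much smaller in the barcodes that had been removed for mixed lineage. Those removed would have been 431 of 752 CD90.1-dominant CD8 barcodes in AAV-sgBaat (57.3%) and 776 of 1857 in AAV-sgSCR (41.8%). They carried 72.3 CPM of Il7r in the AAV-sgSCR library (67.2 to 77.7) against 51.0 in that of AAV-sgBaat (43.0 to 60.1), and 41.4 against 23.7 CPM of Il18r1. Of them 54.1% in AAV-sgBaat and 38.5% in AAV-sgSCR met the monocyte and macrophage panel, and 4.64% and 23.1% the B cell panel. With these barcodes kept, the log2 ratio of Il7r was -0.99, short of 2-fold, and that of Il18r1 was -1.32. The size of the Il7r difference therefore rests on the removal of mixed barcodes, and which of the 2 sets shows the cells' own RNA was not tested.

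Ccl5-positive CD8 T cells with more CD90.2 than CD90.1 showed smaller differences. These cells (278, 642 and 297) had 415 CPM of Il7r in mock (387 to 444), 271 in AAV-sgSCR (254 to 288) and 217 in AAV-sgBaat (193 to 244), with no overlap of the 3 intervals. The log2 ratio of AAV-sgBaat over AAV-sgSCR was -0.32 (-0.51 to -0.12). It did not keep its sign when cells were thinned to 2000 UMIs (0.07) or held to at least 2000 UMIs and at most 5% mitochondrial UMIs (0.08). Il2rg was at 209, 204 and 250.5 CPM, Il18r1 at 90.8, 83.1 and 78.4, and Il4ra at 40.6, 37.3 and 42.3. Of 7 members with enough UMIs, 0 passed 2-fold in AAV-sgBaat over AAV-sgSCR, where 4.39% of 9089 genes were lower and 0.880% higher by as much. The same count was 0 of 8 for AAV-sgSCR over mock (3.62% lower and 3.43% higher) and 0 of 7 for AAV-sgBaat over mock (7.05% and 1.88%). Within AAV-sgBaat, the CD90.1-dominant cells thus had 12.01 CPM of Il7r beside 217 in Ccl5-positive CD90.2-dominant cells, and within AAV-sgSCR 89.2 beside 271.

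Over all CD8 T cells together the Il7r difference was small, at 175 CPM over the 1814 cells of AAV-sgSCR and 142 CPM over the 717 of AAV-sgBaat, a log2 ratio of -0.30 (-0.46 to -0.14). Mock CD8 T cells (571) were at 469 CPM. The CD90.1-dominant cells, low in Il7r in both virus libraries, were 1081 of the first number and 321 of the second.

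CD4 T cells (399, 133 and 75) had close values in the virus libraries, with Il7r at 385 and 374 CPM, Il2rb at 269 and 270 and 0 of 6 members past 2-fold (6.73% of 4770 genes lower, 2.6% higher). Against mock, CD4 Il4ra was at 23.5 CPM in AAV-sgSCR and 52.2 in mock, a log2 ratio of -1.15 (-2.03 to -0.37), the 1 member of 7 past 2-fold there (6.82% of genes lower, 4.37% higher). With mixed-lineage barcodes kept its ratio was -0.49 and the call ended. In AAV-sgBaat over mock it was CD4 Il2ra, with 2 UMIs against 44 (1 of 7, beside 13.2% lower and 5.89% higher).

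The T cells in none of the named subsets (765, 390 and 516) had 397 CPM of Il7r in mock, 453 in AAV-sgSCR and 185 in AAV-sgBaat, a log2 ratio of -1.29 for the guides, and 28.4, 37.2 and 9.52 CPM of Il2ra (-1.97). AAV-sgBaat was the low library for both, which made 2 of 8 members lower and 0 higher, beside 3.55% of genes lower and 5.74% higher. In AAV-sgBaat over mock 3 of 8 were lower (Il2ra, Il2rb and Il7r) and 0 higher, beside 8.49% of genes lower and 8.33% higher. In AAV-sgSCR over mock 0 of 8 passed 2-fold (5.05% lower, 4.21% higher). Cells with a UMI of Dntt, Arpp21 or Rag1 were 24.2% of this class in AAV-sgBaat and 2.05% in AAV-sgSCR. Without them Il7r was at 463 CPM in AAV-sgSCR and 223 CPM in AAV-sgBaat. The class also differed by tag. CD90.1-dominant cells made up 242 of its 516 AAV-sgBaat cells (46.9%), 44 of 390 for AAV-sgSCR (11.3%) and 0 of 765 mock cells. By the same rule 399 of 623 neutrophils (64.0%) of AAV-sgBaat and 397 of 993 (40.0%) of AAV-sgSCR were CD90.1-dominant. Median tag counts of the class in AAV-sgBaat were 105.5 for CD90.1 and 97 for CD90.2. The tag share alone therefore does not show how many of its cells were CD90.1 T cells. Median depth of the class was 2136.5 gene UMIs per AAV-sgBaat cell, against 4199 for the control guide. What part tag makeup and depth play in the Il7r, Il2ra and Il2rb differences was not tested.

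Gamma-delta T cells (79, 73 and 46 cells) differed between AAV-sgSCR and mock in 3 of 7 members. Il2ra was at 6.61 CPM in mock (3 UMIs), 89.6 in AAV-sgSCR (32 UMIs; 61.3 to 127) and 44.4 in AAV-sgBaat (8 UMIs; 19.2 to 87.6). Mock was the low library, and its interval of 1.36 to 19.3 overlapped that of AAV-sgBaat at the edge. The log2 ratio of AAV-sgSCR over mock was 3.76 (2.08 to 6.11). Il21r (42.0 against 110 CPM; -1.39) and Il4ra (19.6 against 83.7 CPM; -2.09) were lower. Of 4760 genes 4.12% were higher and 8.93% lower by 2-fold in this comparison. The makeup of the gate differed too, since the 7 conventional NK markers summed to 211 CPM in mock and 39.2 in AAV-sgSCR. The 46 cells of AAV-sgBaat were too few for a ratio.

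Immature T cells, gated on at least 2 UMIs of Dntt, Arpp21 and Rag1, were 90 in AAV-sgSCR and 827 in AAV-sgBaat, with only 4 in mock. By tag, 80 of the 90 cells (88.9%) of AAV-sgSCR were CD90.1-dominant, as were 791 of 827 (95.6%) in the AAV-sgBaat library. In this class Il7r was at 8.41 and 7.31 CPM, Il2rb at 21.4 and 13.8 and Il18r1 at 3.06 and 2.64. Il7r was not far above that of neutrophils (2.08 and 4.66 CPM), and its 7.31 CPM in immature T cells of AAV-sgBaat lay within the interval of CD90.1-dominant CD8 T cells of that library (6.57 to 20.2). Il2rg (47.4 and 48.3 CPM) and Il21r (45.1 and 39.4 CPM) were held at like levels in both libraries. Il2ra was at 9.17 CPM (12 UMIs) and 1.68 CPM (14 UMIs), a log2 ratio of -2.45 (-3.67 to -1.21; -1.46 with mixed barcodes kept), and Il15ra at 4.59 and 2.28 CPM (-1.01, -2.39 to 0.60). These 2 of 7 members were past 2-fold, beside 1.97% of 10041 genes lower and 3.56% higher. The log2 ratio of Il7r in this class was -0.20 and turned to 1.52 after thinning and to -1.37 with mixed barcodes kept, so no direction is drawn for it.

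NK cells (428, 113 and 103) of the virus libraries had close levels of the members counted often enough, and each interval of their ratio included 0. Il2rb was at 715 and 771 CPM, a log2 ratio of 0.11 (-0.13 to 0.35), Il18r1 at 202 and 208 (0.04, -0.42 to 0.50) and Il2rg at 216 and 244 (0.18, -0.26 to 0.61). Of 4 members with enough UMIs 0 passed 2-fold, beside 3.28% of 4658 genes lower and 2.28% higher. The fourth was Il7r, at 53.9 CPM (27 UMIs) and 33.1 (11 UMIs), a ratio of -0.70 (-1.86 to 0.36). Against mock, AAV-sgSCR NK cells had lower Il2rb (-0.48, -0.64 to -0.31, or -0.29 with mitochondrial, ribosomal and other abundant genes left out of the CPM). Il2rg was also lower (-0.46, -0.77 to -0.15), but its ratio lay between -0.48 and -0.009 over the alternative settings. Il7r was higher (53.9 against 21.2 CPM, log2 ratio 1.35, 0.58 to 2.10). It was the 1 of 6 members past 2-fold, where 11.9% of genes were lower and 2.71% higher. With stricter lineage panels the Il7r ratio was 0.97 and this call ended. AAV-sgBaat NK cells had 6.03 CPM of Il21r (2 UMIs) against 23.4 in mock (-1.96, -5.05 to -0.02, or -1.34 after thinning), again 1 of 6 (13.9% lower, 2.70% higher). The median log2 ratio of all tested genes was -0.22 in both comparisons with mock.

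ILC1 cells (101, 100 and 72), the tissue-bound relatives of NK cells, combined high Il2rb with Il7r well above that of NK cells. Their Il2rb range over the libraries (829 to 1309 CPM) overlapped that of NK cells (715 to 994). Between the virus libraries the intervals of both chains included 0, with log2 ratios of -0.02 (-0.26 to 0.21) for Il2rb and -0.17 (-0.64 to 0.30) for Il7r. Both libraries had less Il2rb than mock, by ratios of -0.64 (-0.82 to -0.46) for AAV-sgSCR and -0.66 (-0.88 to -0.44) for AAV-sgBaat, comparisons that share the mock library (-0.44 and -0.50 with the same genes left out). Il21r was at 164 CPM in mock (129.96 to 203), 53.5 in AAV-sgSCR (35.2 to 77.8) and 86.7 in AAV-sgBaat (56.1 to 128). The mock interval lay above both others, and the ratio of AAV-sgSCR over mock was -1.61 (-2.30 to -0.97). Il4ra was also highest in mock, at 84.9, 45.5 and 34.7 CPM. Il2ra was counted 1, 16 and 4 times, or 2.02, 31.7 and 13.9 CPM, high in AAV-sgSCR and low in mock. It was the 1 of 7 members past 2-fold in AAV-sgBaat over AAV-sgSCR (-1.19, -3.23 to 0.44), an interval that includes 0, beside 4.79% of 4609 genes lower and 2.73% higher. Against mock 1 of 6 members was lower in each virus library, Il21r in AAV-sgSCR (9.34% of 5579 genes lower, 2.20% higher) and Il4ra in AAV-sgBaat (13.4% lower, 2.74% higher; its ratio was -1.29, or -2.35 after thinning).

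B cells separated by stage in both Il7r and Il2rg. Precursor B cells, with at least 2 UMIs of Igll1, Vpreb1, Rag1 and Dntt, were 147 in AAV-sgSCR and 78 in AAV-sgBaat and only 1 in mock. They carried 293 CPM of Il7r (261 to 328) and 199 CPM (163 to 241), a log2 ratio of -0.56 (-0.89 to -0.23), and 34.3 and 24.9 CPM of Il2rg. Of 3 members with enough UMIs 0 passed 2-fold (6.43% of 6605 genes lower, 1.86% higher). Other B cells, those in neither the precursor nor the mature gate, had 2.76 CPM of Il7r in mock (3 UMIs over 193 cells), but 290.5 in AAV-sgSCR and 118 in AAV-sgBaat. The log2 ratio of AAV-sgBaat over AAV-sgSCR there was -1.30 (-1.75 to -0.88), 1 of 5 members past 2-fold (7.04% of 6674 genes lower, 2.53% higher). The immature panel summed to 4.60, 36.6 and 72.3 CPM in these cells, and how far precursors make up the class was not tested.

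Mature B cells (2729, 305 and 177), with an Ighd or Fcer2a UMI and none of the precursor panel, had 2.27 CPM of Il7r in mock (1.44 to 3.40), 73.2 in AAV-sgSCR (56.7 to 93.0) and 5.09 in AAV-sgBaat (0.616 to 18.4). AAV-sgSCR was the high library, from 67 UMIs in 20 cells. The log2 ratios were 5.01 (4.31 to 5.76; 4.23 after thinning and 2.17 among Fcer2a-positive cells) for AAV-sgSCR over mock and -3.85 (-6.92 to -1.94; -3.16 after thinning) for AAV-sgBaat over AAV-sgSCR. In a split chosen after the values were seen, 63 of the 67 UMIs lay in the 168 cells without Fcer2a, the receptor CD23 of mature follicular B cells, at 128 CPM, and the 137 cells with it had 9.46 CPM (2.58 to 24.2) from 4 UMIs. The AAV-sgSCR mature gate thus held Il7r in its Fcer2a-negative cells, and the 2-fold call of AAV-sgBaat over AAV-sgSCR was not made among Fcer2a-positive cells alone. With at least 2000 UMIs and at most 5% mitochondrial UMIs asked of a cell, 75 AAV-sgSCR mature B cells were left, Il7r had fewer than 20 UMIs over any pair of libraries and all of its calls ended. Il21r was at 103, 72.1 and 61.0 CPM and Il4ra at 102, 59.0 and 35.6, both highest in mock. Il2rg was at 190, 199.999 and 219. Past 2-fold were 1 of 4 members in AAV-sgBaat over AAV-sgSCR (7.29% of 5804 genes lower, 1.24% higher), 1 of 6 in AAV-sgSCR over mock (5.42% higher, 6.91% lower) and 2 of 6 in AAV-sgBaat over mock, namely Il7r higher (1.16, from 2 UMIs) and Il4ra lower (-1.52), where 10.5% of genes were lower and 4.67% higher. Il15ra had 22 UMIs in mock and 0 in the far smaller AAV-sgBaat sum, which gives no bound.

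**Figure D4:**
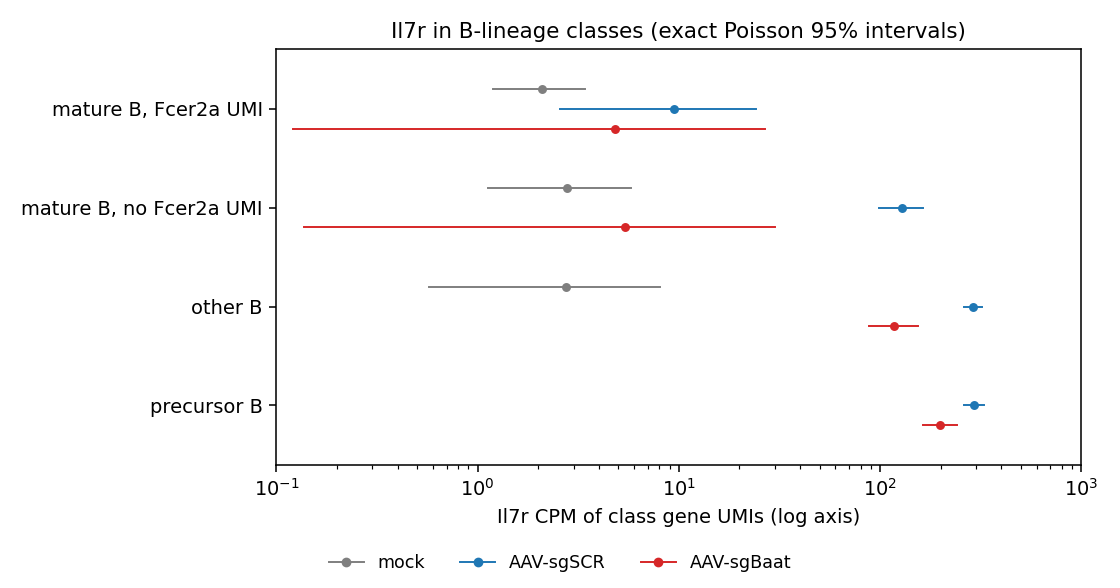
Il7r in B-lineage classes of the 3 libraries, as CPM on a log axis with exact Poisson 95% intervals; precursor B cells of mock (1 cell) have no point. In AAV-sgSCR the mature cells without Fcer2a (128 CPM) lie toward the precursor B cells (293 CPM), while the mature cells with Fcer2a (9.46 CPM) overlap those of AAV-sgBaat.

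Myeloid progenitors, marked by Mpo, Elane, Prtn3, Ctsg, Cd34 and Kit, were 87 in AAV-sgSCR and 76 in AAV-sgBaat. They carried little of these receptors. Il2rg was at 25.1 and 22.7 CPM (log2 ratio -0.15, -1.15 to 0.76), Il21r at 17.5 and 12.2, Il4ra at 15.9 and 8.74, Il15ra at 5.13 and 3.50, and Il2ra at 0 UMIs in both. Of 3 members with enough UMIs 0 passed 2-fold (7.46% of 8085 genes lower, 2.36% higher). Il7r was at 1.03 CPM (2 UMIs) and 14.0 CPM (8 UMIs), too few for the 20 UMIs required. T cell markers summed to 37.5 CPM in the AAV-sgSCR progenitors and 374 CPM in those of AAV-sgBaat, whose median depth was 3009 UMIs against 22949.

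Of the 25 other genes of the pathway, few passed 2-fold in the lymphocyte comparisons of AAV-sgBaat with AAV-sgSCR. In CD90.1-dominant CD8 T cells 15 had enough UMIs, 0 were higher and 2 lower (4.74% and 5.94% of all genes), namely Il18rap, the second chain of the interleukin-18 receptor (23.7 and 11.2 CPM; -1.09, -2.03 to -0.27), and Il18 itself (21 UMIs against 1). Both chains of the interleukin-18 receptor were low there. In CD90.2-dominant Ccl5-positive CD8 T cells 0 of 15 passed. In NK cells Stat5b was lower (1 of 10, beside 3.28% of all genes; 31.9 and 15.1 CPM), and in ILC1 cells Stat5b was higher (1 of 12, beside 2.73%; 21.8 and 52.0 CPM). The Jak and Stat genes Jak1, Jak3, Stat3 and Stat6 and the survival gene Bcl2, where counted often enough, passed in none of these 4 classes. In CD4 T cells Crlf2 was the 1 of 13 past 2-fold, at 100 CPM in AAV-sgSCR and 42.4 in AAV-sgBaat, beside 6.73% of all genes lower.

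Against mock, single pathway genes differed in T cells, in numbers that varied by class and library. In Ccl5-positive CD8 T cells of AAV-sgSCR, Cish, a feedback inhibitor of STAT5 signalling, was at 75.6 CPM against 28.6 in mock (1.40, 0.99 to 1.84), Socs2 at 18.5 against 8.02 and Bcl2 at 681 against 264 (1.37, 1.23 to 1.51). With Il2 (40 UMIs against 4) these were 4 of 15 pathway genes higher and 0 lower, beside 3.43% and 3.62% of all genes. In AAV-sgBaat over mock the same class had 1 of 14 higher (Cish, 73.0 CPM) and 1 lower (Stat5a, 9.22 against 21.6 CPM), beside 1.88% and 7.05%. In CD4 T cells Cish was at 22.7 CPM in mock, 106 in AAV-sgSCR and 112 in AAV-sgBaat, and Socs2 at 38.9, 93.9 and 92.6. Mock was the low library for both genes. With Il2 and Il18rap these were 4 of 16 higher in each virus library (4.37% and 5.89% of all genes). Lower in AAV-sgSCR were 3, Il4 (3.13 against 22.2 CPM), Jak3 (6.26 against 16.7) and Stat5a (14.1 against 29.1), beside 6.82%, and 0 in AAV-sgBaat, beside 13.2%. In the T cells of no named subset 0 of 17 passed in AAV-sgSCR (4.21% of all genes higher, 5.05% lower), and 1 of 16, Il4, was lower in AAV-sgBaat (8.33% higher, 8.49% lower). In NK cells the direction was mixed, with Socs2 higher (24.0 against 6.29 CPM) and Socs3 (31.9 against 90.9), Pim1 (357 against 852) and Stat5a (5.99 against 29.2) lower in AAV-sgSCR than in mock, 1 and 3 of 14 beside 2.71% higher and 11.9% lower over all genes.

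The ligands themselves were scarce in the sorted cells. Over all passing barcodes Il15 was counted 77, 488 and 265 times in mock, AAV-sgSCR and AAV-sgBaat, Il2 106, 174 and 89 times, Il7 11, 16 and 5 times, Il21 4, 38 and 2 times, Il4 213, 123 and 154 times and Il9 0 times. Il18, the ligand of Il18r1, was counted 100, 626 and 327 times, and lay at 25.3 to 32.3 CPM in monocytes and macrophages. These barcodes held 31256049, 61084903 and 46301256 gene UMIs and differed in their share of myeloid cells, so the counts are not levels. Il7 and much Il15 are made by stromal and epithelial cells, which were not sorted. Migratory dendritic cells of AAV-sgSCR had 39.4 CPM of Il15 beside their Il15ra. Among receptors outside the 8, Crlf2, which pairs with Il7r for the cytokine TSLP, was spread over lymphoid and myeloid classes. It was at 46.6 to 94.5 CPM in CD90.1-dominant and Ccl5-positive CD8 T cells and at 109 to 141 CPM in monocytes and macrophages. Il13ra1, the partner of Il4ra for interleukin-13, was highest in monocytes and macrophages (58.2 to 94.6 CPM). It lay at 6.81 to 28.5 CPM in neutrophils and dendritic cells, and at no more than 9.04 CPM in the other classes.

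The genes whose class pattern was most like each receptor were found over 27 points, 9 classes in 3 libraries, as Pearson's r of log2(CPM + 10), a description over points that share libraries and depth. Il2rb was most like Txk (r = 0.996), Sytl2 (0.993) and Ifng (0.993), and Il18r1 like Nkg7, Ctla2a (0.98 each) and Ctsw (0.97); the pair Il2rb and Il18r1 itself reached 0.97. Il2rg was most like Gimap8, Gimap4 and Gimap6 (0.95 each). Il7r was most like Cbr1 (0.82), Bzw2 (0.80) and Znrf1 (0.79), and stood at 0.47 with Il2rb and 0.26 with Il2rg. Il21r was nearest to Rbm38, Dcaf1 and Slain1 (0.77 each), Il4ra to Retreg1 (0.77), Hipk1 (0.76) and Gpr183 (0.74), Il2ra to Serpina3f (0.69), Tcrg-C1 (0.68) and Tmem64 (0.67), and Il15ra to Akr1b3 (0.67), Eif1b and Ripk3 (0.65 each). The r of Il2ra (387 UMIs over these points) and Il15ra (227) rests on low counts.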

How the data were processed

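Raw UMI counts per gene and barcode of 3 10x 3′ libraries were deposited by the authors without normalization, per the file headers. Reads were counted with Cell Ranger (version 6.0.1 in the file header) on mm10, per the submitters' processing notes. The antibody tag counts CD90.1 and CD90.2 stand in the same matrices; a label names another hashtag in place of the third tag, F4/80. The members and gene lists were chosen with earlier results of these data known. Counts were summed over the cells of a class (at least 20) and given as CPM with exact Poisson 95% intervals. Ratios have exact conditional intervals and were read as past 2-fold for genes with at least 20 UMIs over both libraries in classes of at least 50 cells. A sum of 0 was set to 3 counts and called only where still past 2-fold. Lineage panels asked for 2 UMIs (T, NK), 3 (B, monocyte and macrophage, basophil, dendritic) or 5 (progenitor, Lyz2), 10 (neutrophil) or 20 (hepatocyte), and CD8 tag classes for 100 tag UMIs. A CD8 subset without Ccl5 is not reported here. Removal of mixed-lineage barcodes served as the doublet filter. Named genes were the 8 members, pathway genes that are subunits or ligands or were past 2-fold in some comparisons, and 3 like genes per member. Pathway genes past 2-fold in other comparisons, among them those of B and progenitor cells, are not all named. The ratio script was tested on simulated data. Python 3.11.15, numpy 2.4.6, scipy 1.17.1, pandas 2.3.3 and scanpy 1.11.5 were used.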

Additional observations from a re-analysis of the deposited data

How the results depend on the processing

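Of 858 log2 ratios of single members recomputed under 11 alternatives, 821 stayed within the interval of the main value, 37 did not, and 0 ratios past 2-fold changed sign. Ratios with a sum of 0 or under 20 UMIs in a setting were left out, so calls that ended that way are not in these numbers. Wide intervals of sparse genes are also easier to stay within. Past-2-fold counts of AAV-sgBaat over AAV-sgSCR in CD90.1-dominant CD8 T cells lay between 2 (Il2ra and Il18r1 with mixed-lineage barcodes kept, Il7r and Il18r1 after thinning) and 4. For NK cells the count lower in AAV-sgBaat than AAV-sgSCR was 1 (Il7r) and not 0 with at least 2000 UMIs and at most 5% mitochondrial UMIs, or at 1.5-fold. For ILC1 cells it was 0 and not 1 at 2000 UMIs, after thinning, or with at least 50 UMIs per gene, and the count higher was 1 (Il18r1) after thinning and 2 (Il18r1 and Il21r) at 1.5-fold. For ILC1 cells of AAV-sgSCR over mock the count lower was 2 (Il21r and Il4ra) at 2000 UMIs, with mixed barcodes kept or after thinning, and 3 at 1.5-fold, and the count higher was 1 (Il2ra) with mixed barcodes kept. In Ccl5-positive CD8 T cells 1 member (Il2ra) was lower in AAV-sgBaat with mixed barcodes kept. In mature B cells of AAV-sgSCR over mock the count higher was 0 at 2000 UMIs and 3 (Il2rb, Il7r and Il15ra) at 1.5-fold, where 1 (Il4ra) was lower. In mature B cells of AAV-sgBaat over AAV-sgSCR the count lower was 2 at 1.5-fold and 0 in Fcer2a-positive cells. The causes were not tested. The alternatives on Dntt, Arpp21 or Rag1 UMIs, on Ccl5 and on Fcer2a were chosen after seeing the data. No paired analysis was possible because each group is 1 library, and no library can be left out. Depth limits Il2ra, Il15ra and any member of the smaller classes.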
